A study of Rattus norvegicus with 12 samples.

Results

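Alox15 and 3 related genes of the lipoxygenase pathway, Alox12, Alox5 and Alox5ap, were followed in whole blood RNA of rats, as 4 of the 17337 genes counted. They were chosen by name. Alox15 was singled out by its lower counts in WKY than in F344 blood without stress in earlier results of these data, and the others were added as its relatives. The difference between strains without stress is therefore given for Alox15 as a description, with no test. Alox15 and Alox12, 2 of the 4 genes, passed the filter on low counts, and Alox5 and Alox5ap did not.

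The study asked how 2 inbred strains, Wistar Kyoto (WKY) and Fischer (F344), differ in blood transcripts after chronic restraint stress (CRS). All rats were adult males of 70 to 90 days. All passed contextual fear conditioning, stayed 4 weeks in the home cage, were conditioned again, and were decapitated 24 hours later for blood collection into PAXgene tubes. The 4 groups were WKY restrained in bags 2 hours a day over 2 weeks (WKY CRS), F344 restrained the same way (F344 CRS), WKY left undisturbed (WKY NS, no stress) and F344 left undisturbed (F344 NS). Each group held 3 libraries. No label states that the libraries of a group came from different animals. The p-values therefore reflect only how far these libraries differ from one another, which may be in part technical.

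Lipoxygenases add oxygen to polyunsaturated fatty acids such as arachidonic acid and give lipid hydroperoxides that feed the synthesis of signalling lipids. ALOX15, the 12/15-lipoxygenase, is known from reticulocytes, where it takes part in the breakdown of organelle membranes during maturation, and from eosinophils and macrophages, where interleukin-4 and interleukin-13 induce it. ALOX12 is the 12-lipoxygenase of platelets. ALOX5 of myeloid cells starts leukotriene synthesis with the help of the membrane protein ALOX5AP (FLAP).

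Genes received 1691956 to 3846263 counts in a library, but the 3 most abundant features took 88.9% to 94.6% of them. This left 90796 to 419789 counts for all other genes, with F344 NS replicates 3 and 2 among the shallowest libraries. One count was worth 0.201 to 1.135 CPM (counts relative to the library total, scaled between libraries by TMM), so low genes were measured coarsely, and intervals for counts cover counting error only. Rows that name no gene held 80.9% to 86.6% of all counts, most of them reads recorded as ambiguous between features. In the RefSeq gene table Alox12, Alox12e and Alox15 stand next to one another on the chromosome. No gene there overlaps Alox15, Alox12 or Alox5ap, while Alox5 overlaps a tRNA gene. Markers of 8 blood cell types were looked up, and all lists had detected members, with the platelet gene Gp1bb and the mast cell gene Cpa3 at 0.

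Alox15 was lower in WKY than in F344 blood under both treatments, and no change with restraint was called in either strain. It had 44.4, 50.5 and 27.1 CPM in WKY CRS replicates 1 to 3, against 143, 155 and 158 CPM in F344 CRS. The 3 WKY CRS libraries lay below all 3 F344 CRS libraries. Without stress it had 46.2, 38.1 and 38.8 CPM in WKY NS, against 70.7, 189 and 141 CPM in F344 NS. Again no WKY library reached an F344 library, and F344 NS replicate 1 stood well below the other 2 of its group. Behind these levels were 175, 117 and 83 Alox15 counts in WKY CRS and 712, 457 and 782 in F344 CRS. The unstressed libraries held 202, 117 and 101 counts in WKY NS and 258, 311 and 124 in F344 NS, 3439 over all 12 libraries.

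Alox15 averaged 40.6 ± 12.1 CPM in WKY CRS and 152 ± 7.92 CPM in F344 CRS, and 41.0 ± 4.49 CPM in WKY NS and 133 ± 59.3 CPM in F344 NS (SD, n = 3 each). By mean level the order, from the highest, was F344 CRS, F344 NS, WKY NS and WKY CRS. The ranges of F344 CRS and F344 NS overlapped, as did those of WKY NS and WKY CRS, while the step between the strains was free of overlap. All 6 WKY libraries lay below all 6 F344 libraries, a pattern held by 0.935% of the 2781 tested genes (26 genes).

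**Figure D1:**
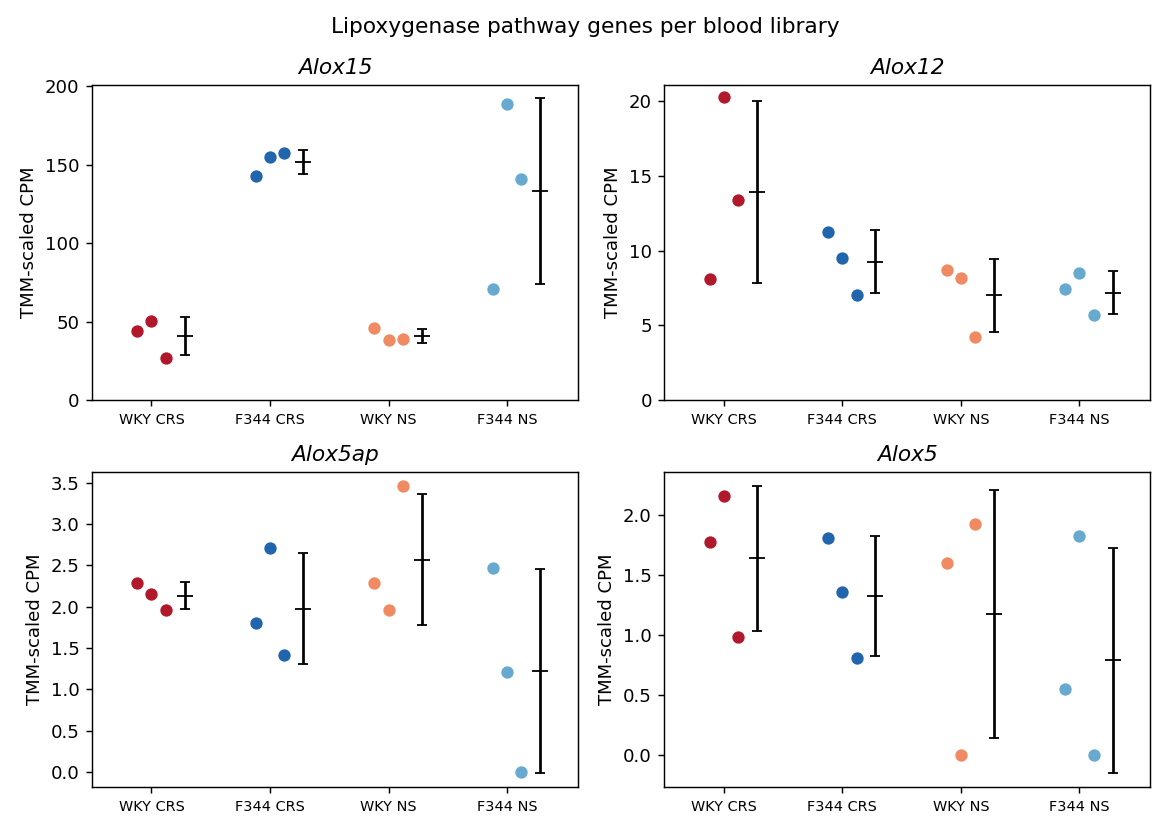
TMM-scaled CPM (vertical axis, linear) of Alox15, Alox12, Alox5ap and Alox5 in each library, by group, with the mean and SD of 3 libraries drawn beside the points. Alox15 lies between 27.1 and 50.5 CPM in the 6 WKY libraries and at 70.7 CPM or more in the 6 F344 libraries, and the groups of the other 3 genes overlap.

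After CRS, Alox15 was 3.74-fold lower in WKY than in F344 blood. The log2 difference was -1.90 (SE 0.321, approximate 95% interval -2.53 to -1.27), with an adjusted p of 0.000464 in edgeR's quasi-likelihood test. It was lower in 3 of 3 WKY libraries than in any F344 library. Whether strain differences in sequence from the reference genome change how many Alox15 reads are mapped and counted was not tested, and this limit holds for every strain difference given here. In this comparison 1.4% of tested genes were called (39 of 2781, 19 higher and 20 lower in WKY), and 10% of tested genes had all 3 WKY libraries below all 3 F344 libraries. These 6 libraries did not enter the unstressed comparison that singled Alox15 out, but earlier results of them were known too, so the adjusted p is not independent support. The call held under every alternative run, including the removal of each library in turn, with log2 differences from -2.28 to -1.68.

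Without stress, the log2 difference of Alox15 between WKY and F344 was -1.69 (SE 0.322), a 3.22-fold lower level in WKY. This comparison chose the gene, so its value is only described. It called 0.683% of tested genes (19 of 2781, 9 higher and 10 lower in WKY), and in 6.33% of tested genes all 3 WKY libraries lay below all 3 F344 libraries. The size of the difference rested on the 2 shallower F344 NS libraries. Without F344 NS replicates 2 and 3 it was -0.77 (SE 0.341), with replicate 1 alone in its group and assumed to vary like the other groups. Without TMM scaling, with all gene counts as library size, it was -1.09.

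Restraint itself gave no call for Alox15. In F344 the log2 difference of CRS to NS was 0.20 (SE 0.309, approximate 95% interval -0.41 to 0.80, edgeR adjusted p = 0.999). In WKY it was -0.02 (SE 0.319, interval -0.64 to 0.61, adjusted p = 0.992). Averaged over the strains it was 0.09 (SE 0.222, interval -0.35 to 0.52, adjusted p = 0.977). The response in WKY minus that in F344 was -0.22 (SE 0.444, interval -1.09 to 0.65, adjusted p = 0.993). These intervals are wide, and a difference smaller than their bounds could not be seen with 3 libraries a group. In F344 the sign turned to -0.12 without F344 NS replicate 1, and the value grew to 1.11 (adjusted p = 0.999) without F344 NS replicates 2 and 3.

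Few genes in all were called for restraint in these libraries, and smaller changes could have been missed with 3 libraries a group. edgeR called 0% of tested genes in F344 (131 at an unadjusted p under 0.05), 0% in WKY (161) and 0% for the difference in response (106). DESeq2 also called 0 genes in each of these. The average over strains called 0.036%, 1 gene of 2781, which was not one of the 4 lipoxygenase pathway genes, and DESeq2 called 3.

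**Figure D2:**
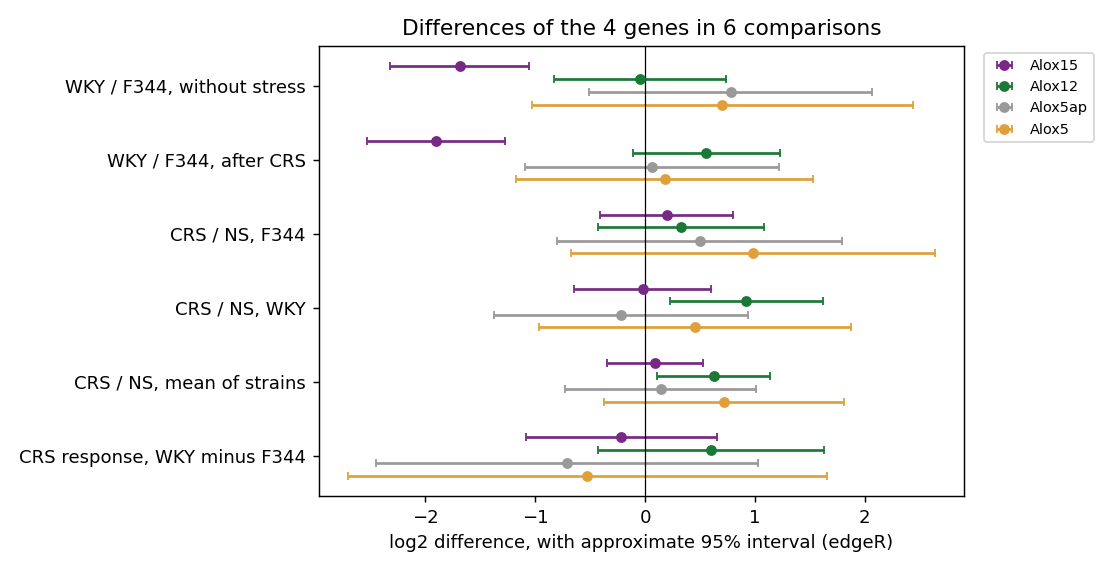
Log2 differences (horizontal axis) of the 4 genes in the 6 comparisons, as points with approximate 95% intervals from edgeR. WKY over F344 and CRS over NS are positive when WKY or CRS is higher. Alox15 lies at -1.69 and -1.90 in the strain comparisons, and its intervals for restraint hold 0.

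The low Alox15 value of F344 NS replicate 1 in CPM depended on the scale used. On scales that take no factor from other libraries the F344 NS libraries stood closer together. Per 10000 counts outside the 3 most abundant features, Alox15 took 5.48, 5.03 and 2.83 counts in WKY CRS, against 20.6, 16.2 and 18.6 in F344 CRS. Without stress it took 5.81, 5.28 and 5.92 in WKY NS, against 11.7, 15.9 and 13.7 in F344 NS. No WKY library reached an F344 library on this scale either. How many genes did the same on this scale was not counted. In CPM it was 0.935% of tested genes.

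On this scale each F344 CRS library lay above each F344 NS library, by a difference of means of 4.73 per 10000 counts (18.5 ± 2.21 in F344 CRS and 13.8 ± 2.103 in F344 NS, SD, n = 3 each). The exact two-sided permutation test gave p = 0.1, the smallest that 3 libraries against 3 allow, and 3.63% of tested genes showed the same separation. In WKY the means were 4.45 ± 1.42 after CRS and 5.67 ± 0.343 without stress, a difference of -1.22 (exact permutation p = 0.2). Both scales were chosen after the data were seen.

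Alas2, the first enzyme of haem synthesis in red cell precursors, served as a second internal scale. Per 100 Alas2 counts of the same library, Alox15 had 8.29, 7.62 and 4.85 counts in WKY CRS, against 26.3, 21.3 and 22.8 in F344 CRS. Without stress it had 8.95, 7.18 and 9.26 in WKY NS, against 15.4, 20.8 and 20.2 in F344 NS. The 6 WKY libraries lay below the 6 F344 libraries here too, as in 0.612% of the genes compared. The F344 CRS libraries again lay above the F344 NS libraries, by 4.68 per 100 Alas2 counts (exact permutation p = 0.1), and 2.45% of genes did the same. In WKY the difference was -1.54 (exact permutation p = 0.3). Alas2 itself was not called between strains after CRS (log2 -0.16, edgeR adjusted p = 0.906) or without stress (log2 -0.49, adjusted p = 0.666).

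**Figure D3:**
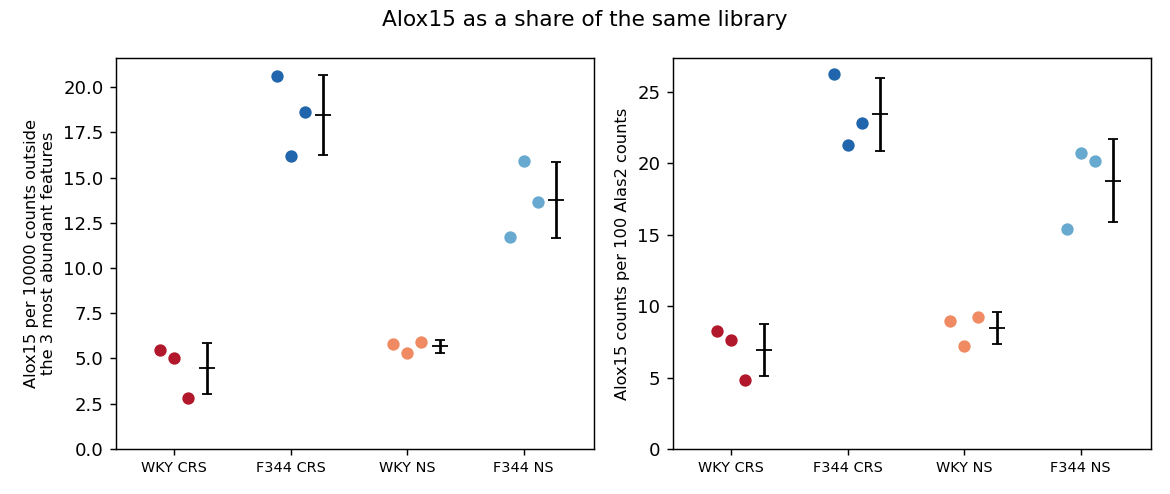
Alox15 counts per 10000 counts outside the 3 most abundant features (left) and per 100 Alas2 counts (right) in each library, with mean and SD beside the 3 points of a group. The WKY libraries lie between 2.83 and 5.92 on the left scale and the F344 libraries between 11.7 and 20.6.

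**Figure D4:**
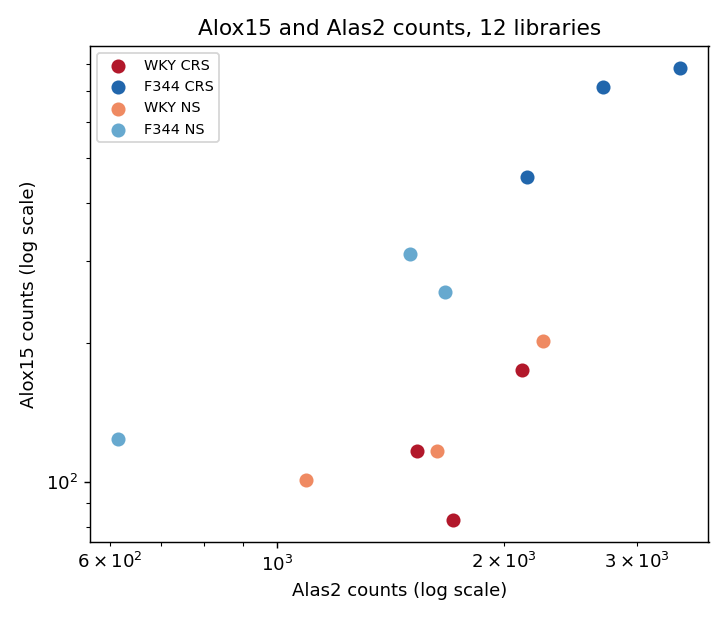
Alox15 counts against Alas2 counts of the 12 libraries, both axes logarithmic, coloured by group. At similar Alas2 counts the F344 libraries hold more Alox15 counts: per 100 Alas2 counts the WKY CRS libraries have 4.85 to 8.29 and the F344 CRS libraries 21.3 to 26.3.

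The summed reticulocyte markers overlapped between the strains. Of 14 markers 13 were in the files, and their summed level was 950.1 to 1307 CPM in WKY CRS and 1002 to 1165 CPM in F344 CRS. It was 917 to 992 CPM in WKY NS and 753 to 1665 CPM in F344 NS. The overlap held under both treatments. Alas2 and Slc4a1, with mean levels of 604 and 253 CPM over all libraries, made up most of the sum. Of the 10 markers that passed the filter 0 were called in any of the 6 comparisons. Over all tested genes 0% to 1.4% were called in these comparisons, so 0 of 10 says little. After CRS the median log2 difference of WKY to F344 over the 10 markers was 0.07, with 4 of 10 negative, beside 0.00 over all tested genes. Without stress it was -0.22, with 8 of 10 negative, beside -0.01 over all tested genes, the same sign as that of Alox15. Their part in the Alox15 difference was not tested. In bulk blood, fewer cells of a type and less RNA per cell cannot be told apart.

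Within groups, 1 of these markers varied closely with Alox15. Ahsp encodes the alpha-haemoglobin stabilising protein of late red cell precursors. After subtraction of the group means, its log2 level had a Pearson correlation of 0.972 with that of Alox15 over 12 libraries, and 0.994 over the 9 libraries outside F344 NS. In both cases it ranked 1 among the 2780 other tested genes, so it was picked from all genes after its value was seen and is given as a description. The libraries share the scaling factors that enter both genes. The other erythroid markers followed less closely, the next being Slc4a1 at 0.844. Over the 10 tested markers, Ahsp included, 9 correlations were positive, with a median of 0.59. Over all genes 1248 of 2780 were positive, with a median of -0.05. Without the F344 NS libraries 6 of the 10 markers, Ahsp included, were positive, with a median of 0.37.

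The ratio of Alox15 to Ahsp counts needs no scaling factor. It was 2.61, 2.44 and 2.68 in WKY CRS, against 9.62, 9.72 and 9.31 in F344 CRS. It was 3.06, 3.00 and 3.06 in WKY NS, against 15.2, 7.78 and 7.29 in F344 NS. Within 3 of the 4 groups the ratio was nearly constant, and F344 NS replicate 1, with 17 Ahsp counts, stood above the rest. Ahsp was picked because it varied most closely with Alox15 within groups, so this constancy follows from the choice and is no separate result. Counting error alone gives single ratios an uncertainty of 11.5% to 25.9%, wider than the spread in those 3 groups. Ahsp was not called between the strains, with a log2 difference of WKY to F344 of -0.01 after CRS (edgeR adjusted p = 0.996) and -0.12 without stress (adjusted p = 0.962).

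Markers of other blood cell types were also set beside Alox15. The eosinophil list, with 9 of 10 genes in the files and none of them at 0, summed to 0.653 to 8.63 CPM in WKY CRS and 4.23 to 5.82 CPM in F344 CRS. It summed to 1.54 to 5.86 CPM in WKY NS and 4.54 to 7.28 CPM in F344 NS. The defining granule genes Epx and Prg2 had 10 and 17 counts over all 12 libraries. The only eosinophil marker past the filter, Siglec5, was lower in WKY than in F344 blood after CRS (log2 -4.14, SE 0.741, edgeR adjusted p = 0.000833). Without stress Siglec5 was not called (log2 -1.59, SE 0.565, adjusted p = 0.248). It held 103 of the 172 counts of the list. The summed list overlapped between the strains under both treatments, but held only 2 to 29 counts a library. After CRS WKY replicate 2 made the overlap (8.63 CPM). WKY CRS replicates 1 and 3 (3.30 and 0.653 CPM) lay below the F344 CRS libraries. Siglec5 is not taken to stand for the list, and the other members were too sparse to tell whether they followed it. The part of Siglec5 or of eosinophils in the Alox15 difference was not tested.

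The summed monocyte list ran the other way. Its 11 markers summed to 123 to 168 CPM in WKY CRS and 80.7 to 91.3 CPM in F344 CRS. They summed to 121 to 136 CPM in WKY NS and 63.7 to 74.2 CPM in F344 NS. The sum was thus higher in WKY under both treatments. Lyz2, the lysozyme of phagocytes, made up most of this sum and was not called (log2 0.96 after CRS, edgeR adjusted p = 0.0728). Cybb, the NADPH oxidase subunit, was called higher in WKY after CRS (log2 1.88, SE 0.426, adjusted p = 0.0115), as 1 of the 6 markers tested. Of these 6 markers, 4 had a positive and 2 a negative log2 difference of WKY to F344 after CRS (median 0.48). Without stress the split was again 4 to 2 (median 0.92). T cell markers, 11 of 11 in the files, summed to 28.04 to 42.3 CPM in WKY CRS and 42.7 to 51.8 CPM in F344 CRS. They summed to 33.9 to 37.7 CPM in WKY NS and 48.5 to 63.3 CPM in F344 NS. The T cell sum was thus lower in WKY under both treatments, narrowly after CRS, the direction of Alox15. Of 9 tested T cell markers 8 had a negative log2 difference of WKY to F344 after CRS (median -0.52). Without stress 8 of 9 were negative too (median -1.08). In both comparisons 0 of the 9 were called, beside 1.4% and 0.683% of all tested genes. Sums of neutrophil and B cell markers overlapped between the strains under both treatments. The basophil and mast cell sum was 1.77 to 3.88 CPM in WKY CRS and 1.36 to 1.81 CPM in F344 CRS, and 3.46 to 3.66 CPM in WKY NS and 1.135 to 2.43 CPM in F344 NS. The part of these cell types in the Alox15 difference was not tested.

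Genes whose levels ran most like Alox15 over the 12 libraries were Hbb-b1 (Pearson 0.938), Galnt10 (0.925), Rpl35 (0.922), Ctsb (0.919) and Fam172a (0.912), on the log2 CPM scale. They are descriptions, over libraries that share the step between strains. After subtraction of the group means the correlations were 0.412 to 0.785. Hbb-b1, a beta-globin gene, had 509.6 ± 59.1 CPM in WKY CRS, 1837 ± 452 in F344 CRS, 503 ± 206 in WKY NS and 1420.2 ± 404 in F344 NS (SD, n = 3). Ctsb, the lysosomal protease cathepsin B, had 36.9 ± 6.69 CPM in WKY CRS, 87.9 ± 12.2 in F344 CRS, 40.6 ± 5.59 in WKY NS and 103 ± 29.3 in F344 NS. Galnt10 starts mucin-type O-glycosylation, and Rpl35 is a ribosomal protein. Globin and ribosomal protein genes have near-identical copies, so the counts of Hbb-b1 and Rpl35 are uncertain. With a prior count of 0.5 in place of 2, 4 of these 5 genes stayed among the first 5, and with Spearman's rank correlation 3 did.

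Alox12, the platelet lipoxygenase, showed no called difference in any comparison. It had 8.11, 20.3 and 13.4 CPM in WKY CRS, 11.2, 9.50 and 7.06 CPM in F344 CRS, 8.69, 8.14 and 4.23 CPM in WKY NS, and 7.40, 8.49 and 5.67 CPM in F344 NS. WKY CRS replicates 2 and 3 were the highest of all libraries, and every pair of groups overlapped. The counts behind these levels ran from 5 in F344 NS replicate 3 to 56 in F344 CRS replicate 1, 359 in all. The means were 13.9 ± 6.10 CPM in WKY CRS and 9.26 ± 2.097 CPM in F344 CRS, and 7.02 ± 2.43 CPM in WKY NS and 7.19 ± 1.42 CPM in F344 NS (SD, n = 3 each). From the highest, the order was WKY CRS, F344 CRS, F344 NS and WKY NS, and no neighbours in it were free of overlap.

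The widest Alox12 difference was that of CRS to NS in WKY, at log2 0.92 (SE 0.356, interval 0.23 to 1.62). Its unadjusted p was 0.0136 and its adjusted p over all tested genes 0.787 in edgeR. In F344 the difference was 0.32 (SE 0.385, adjusted p = 0.996), and averaged over strains 0.62 (SE 0.262, adjusted p = 0.605). The response in WKY minus that in F344 was 0.60 (SE 0.526, adjusted p = 0.993). Between strains, WKY to F344, the difference was 0.56 after CRS (SE 0.342, adjusted p = 0.565) and -0.04 without stress (SE 0.399, adjusted p = 0.981).

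Platelet markers were set beside Alox12, and 0 of the 8 tested were called in any of the 6 comparisons. Over all tested genes 0% to 1.4% were called there, so 0 of 8 says little about platelets. Of 15 markers 11 were in the files, Gp1bb was at 0, and Pf4 and Itgb3 were the most counted. Their sum was 104 to 175 CPM in WKY CRS, 86.1 to 98.0 in F344 CRS, 58.4 to 120.3 in WKY NS and 44.3 to 71.0 in F344 NS. For CRS to NS, 8 of 8 had a positive log2 difference in WKY (median 0.44) and in F344 (median 0.64), where Alox12 had 0.92 and 0.32. For WKY to F344, 7 of 8 were positive after CRS (median 0.49) and 8 of 8 without stress (median 0.78), where Alox12 had 0.56 and -0.04. For the difference in response 6 of 8 were negative (median -0.30), while Alox12 had 0.60. The medians over all tested genes lay between -0.02 and 0.02 in these comparisons. The platelet markers thus had the sign of Alox12 in some comparisons and not in others. Where the signs differed, Alox12 had an SE of 0.399 without stress and of 0.526 for the difference in response. Over the 12 libraries the log2 level of Alox12 had a Pearson correlation of 0.754 with the log2 platelet sum (Spearman 0.734). With the sums of the other marker lists its Pearson correlations ran from -0.38 to 0.22. These are descriptions, over libraries that share scaling factors. The part of platelet number in the Alox12 values was not tested.

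Alox5, the first enzyme of leukotriene synthesis, was at the edge of detection. It had 7, 5 and 3 counts in WKY CRS, 9, 4 and 4 in F344 CRS, 7, 0 and 5 in WKY NS, and 2, 3 and 0 in F344 NS, 49 in all. Every pair of groups overlapped. A count of 0 allows up to 0.977 CPM in WKY NS replicate 2 and up to 3.40 CPM in F344 NS replicate 3, if 3 counts are taken as the limit. Pooled over the libraries of a group, its level was 1.61 CPM in WKY CRS (exact 95% Poisson interval 0.900 to 2.65) and 1.32 in F344 CRS (0.768 to 2.11). It was 1.19 in WKY NS (0.617 to 2.09) and 0.809 in F344 NS (0.263 to 1.89), and all 4 intervals overlapped.

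Alox5ap, which presents arachidonic acid to ALOX5, was equally sparse. It had 9, 5 and 6 counts in WKY CRS, 9, 8 and 7 in F344 CRS, 10, 6 and 9 in WKY NS, and 9, 2 and 0 in F344 NS, 80 in all. Its pooled level was 2.14 CPM in WKY CRS (exact 95% Poisson interval 1.31 to 3.31) and 1.86 in F344 CRS (1.19 to 2.77). It was 2.49 in WKY NS (1.61 to 3.67) and 1.78 in F344 NS (0.889 to 3.19). The groups could not be told apart at this depth.

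In a fit without the count filter, over 15012 genes, no comparison called Alox5 or Alox5ap. The log2 differences of WKY to F344 were 0.18 for Alox5 and 0.07 for Alox5ap after CRS, and 0.70 and 0.78 without stress. Those of CRS to NS were 0.98 and 0.50 in F344, and 0.45 and -0.22 in WKY. Standard errors were 0.558 or more for Alox5 and 0.444 or more for Alox5ap in all 6 comparisons, and adjusted p-values from edgeR were 0.855 or above. In that fit 0.266% of genes were called between strains after CRS, 0.147% without stress, 0.0333% for CRS in F344, 0.0533% in WKY, 0.04% on average and 0.02% for the difference in response.

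The other lipoxygenase genes in the files had few counts. Alox12e, the epidermal 12-lipoxygenase, had 31 counts over the 12 libraries, Alox12b of the epidermal barrier had 22, Alox15b had 1 and Aloxe3 had 0. None of them passed the filter.

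The rest of the eicosanoid pathway was thinly measured, and none of its tested genes was called in any of the 6 comparisons. Over all tested genes 0% to 1.4% were called there, so the lack of calls among so few genes says little. Among 12 genes that release arachidonic acid or related lipids 3 passed the filter. Their median log2 difference of WKY to F344 after CRS was 0.08, beside 0.00 over all genes, and that of CRS to NS averaged over strains was 0.07. The secreted phospholipase Pla2g2a had an average CRS difference of 0.69 (edgeR adjusted p = 0.633). The diacylglycerol lipase Daglb had -0.73 (adjusted p = 0.663), and the platelet-activating factor acetylhydrolase Pla2g7 had 0.07.

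Of 10 genes of leukotriene and lipoxin synthesis only Cotl1, which encodes a coactosin-like protein that binds ALOX5, passed the filter. It differed by log2 0.15 between WKY and F344 after CRS (edgeR adjusted p = 0.928). Of 4 genes that reduce lipid hydroperoxides 2 passed. Gpx1, the glutathione peroxidase abundant in red cells, differed by 0.75 (SE 0.339, adjusted p = 0.387) in that comparison and by -0.06 without stress. Gpx4, which reduces hydroperoxides within membranes, differed by -0.17 after CRS. The median of both was 0.29 after CRS and -0.13 without stress.

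Among 12 genes of prostanoid synthesis only Ptgs1, the cyclooxygenase of platelets, passed the filter. Its difference of CRS to NS was log2 1.06 in WKY and 0.95 in F344, with an average of 1.006 (SE 0.311, edgeR adjusted p = 0.495). It was not called. The platelet markers given beside Alox12 had a median of 0.56 in that average. None of the 17 receptors for eicosanoids in the files had enough counts to be tested.

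Genes of the interleukin-4 and interleukin-13 signals were only partly measured. Of 9 listed genes 8 were in the files and 5 passed the filter, and 0 were called in any comparison. Over all tested genes 0% to 1.4% were called in these comparisons, so 0 of 5 says little. Il4 had 1 count over all libraries and Il13 had 0. The median log2 difference of WKY to F344 was -0.07 after CRS and -0.21 without stress, beside 0.00 and -0.01 over all tested genes. The kinases Tyk2 and Jak1 differed by -0.19 and -0.04 after CRS, and the transcription factor Stat6 by -0.07. The part of these signals in the Alox15 difference was not tested.

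**Figure D5:**
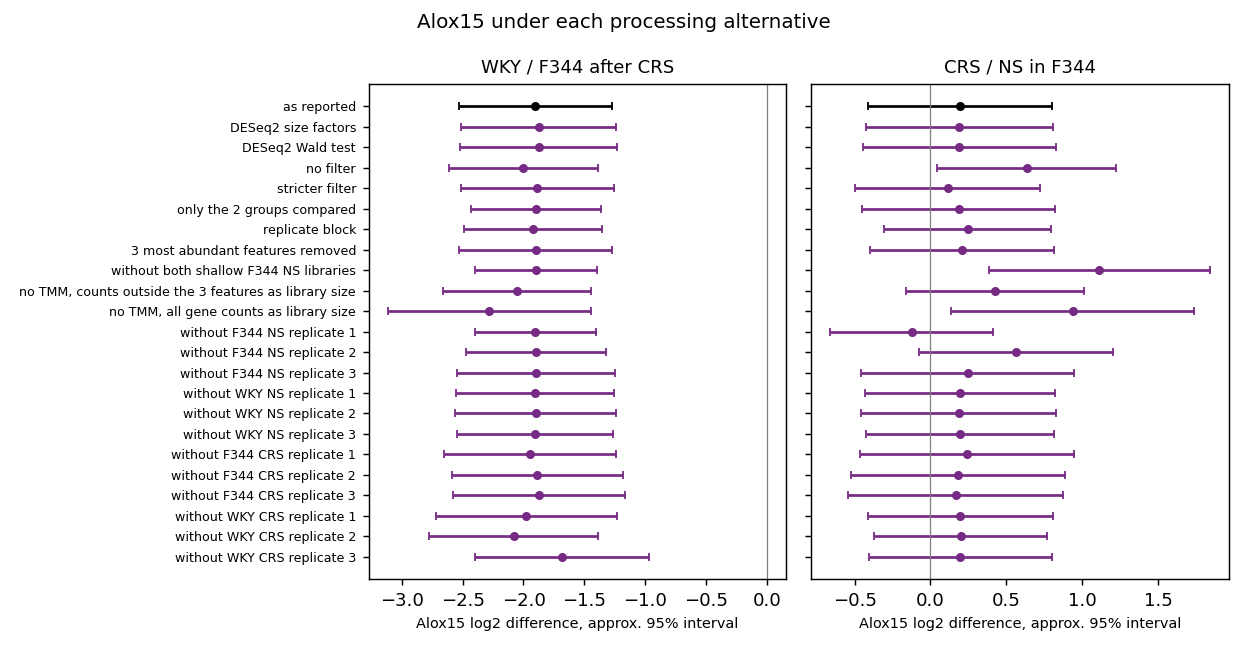
Log2 difference of Alox15 (horizontal axis) with its approximate 95% interval under each alternative, for WKY to F344 after CRS (left) and CRS to NS in F344 (right). On the left all values lie between -2.28 and -1.68, and on the right they run from -0.12 to 1.11.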

How the data were processed

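The authors deposited a table of genes and counts for each of 12 blood libraries, per the file headers, and the values were whole numbers with differing totals, as raw read counts are. Genome build rn6 and the tools TopHat2 2.1.0, Cufflinks 2.2.1 and cutadapt 1.14 appear in the submitters' processing notes without a stated role. Which program counted the reads, with what annotation and strand setting, is not given in the sources used here. In each library 5 rows that name no gene were left out of library sizes and tests.

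Counts were scaled by TMM and tested with edgeR 4.0.16 (R 4.3.3) by the quasi-likelihood test, in 1 fit of 4 group means over all 12 libraries. The filter filterByExpr with a minimum count of 10 kept 2781 genes, and Benjamini-Hochberg adjusted p-values over these genes were called below 0.05. Standard errors came from the log2 difference and the F statistic, and intervals are 1.96 SE wide on each side. Alox5 and Alox5ap, below the filter, were taken from a fit of 15012 genes without it. Alternatives were DESeq2 1.42.0 (size factors and Wald test), no filter or a minimum count of 20, only the groups compared, the replicate number as a block, removal of the 3 most abundant features, removal of libraries, and, added after the data were seen, no TMM.

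The members and gene lists were chosen with earlier results of these data known. The text names all 4 members, up to 3 tested genes of highest mean CPM per pathway list, and the 5 genes most correlated with Alox15 (log2 CPM, prior count 2). Ahsp, the cell type markers given with values, and genes at or near 0 counts were named after their values were seen. Symbols were matched to RefSeq genes of assembly GRCr8 (14821 of 17337), used for names and neighbours only. Simulated counts with known changes were used to test the edgeR script.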

Additional observations from a re-analysis of the deposited data

How the results depend on the processing

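Alox15 stayed lower in WKY than in F344 after CRS, past the threshold, under all 10 alternatives other than leave-one-out (log2 -2.28 to -1.88) and when each of the 12 libraries was left out (-2.08 to -1.68, edgeR adjusted p 1.81e-05 to 0.00737). With the replicate block it was -1.92 (adjusted p = 5.74e-05). Whether replicate numbers pair the libraries could not be settled. Same-numbered libraries had correlations of deviations from -0.0902 to 0.204, over 0.1 in 4 of 18 pairs. Those of differently numbered libraries ran from -0.170 to 0.134. The block changed no call of the 4 genes.

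Without stress the Alox15 difference was -0.77 without F344 NS replicates 2 and 3, -1.09 without TMM (all gene counts as library size), and -2.01 to -1.31 with 1 library left out. The CRS differences of Alox15, none called, crossed 0 with 1 library left out: -0.12 to 0.57 in F344, -0.20 to 0.20 in WKY, -0.072 to 0.27 on average and -0.59 to 0.10 for the difference in response. In WKY it was 1.93e-05 with DESeq2 size factors and 0.000467 in DESeq2's Wald test. The cause was not tested.

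Signs of uncalled values also turned for the other genes. Alox12 without stress (WKY to F344) was 0.19 with no filter, 0.16 and 0.31 without TMM (counts outside the 3 features, or all gene counts, as library size), and -0.24 to 0.19 with 1 library left out, and its difference in response was -0.21 without TMM (all gene counts). Alox5 after CRS was -0.11 without TMM (all gene counts) and -0.084 to 0.54 with 1 library left out, and its CRS difference in WKY was -0.09 to 0.86. Alox5ap after CRS was -0.20 without TMM (all gene counts) and -0.11 to 0.25 with 1 library left out. Without F344 NS replicates 2 and 3 its CRS difference was -0.27 in F344, -0.24 on average and 0.061 for the difference in response. On average it was also -0.19 without TMM (counts outside the 3 features) and -0.019 to 0.76 with 1 library left out. Without TMM the median of all genes moved by 0.21 without stress and -0.16 after CRS (WKY to F344, counts outside the 3 features), and Alox15 relative to it was -1.49 and -1.90.

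Counts of called genes depended on single libraries. The 19 calls without stress became 9 with only the compared groups, 6 without F344 NS replicates 2 and 3, 12 and 8 without TMM, and 5 to 44 with 1 library left out. The 39 calls after CRS became 13 without TMM (all gene counts), and 18, 19 and 20 without F344 CRS replicate 1, 2 or 3. The counts of 0 for CRS in F344, in WKY and for the difference in response became 5, 8 and 3 with no filter, and up to 5, 2 and 2 with 1 library left out. Without TMM (counts outside the 3 features) those in WKY and for the difference in response became 2 and 3. The single call on average became 6 with no filter, 3 in DESeq2's Wald test, 2 with the block and 0 without F344 NS replicates 2 and 3.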
